A study of Mus musculus with 18 samples.

Results

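Cxcl9 and Cxcl10, the genes of a pair of interferon-inducible chemokines that share the receptor CXCR3, were followed across ECs (endothelial cells, which line the blood vessels) of 3 breast tissues that had received either vehicle or a STING agonist. The genes were taken by name from a table of 16248 genes, and both names occurred once, so 2 of 16248 genes are described. The bulk RNA sequencing comprised 6 groups with 3 libraries each, all from mice of the FVB strain and all collected 3 h after the injection. Wild type mice gave the normal ECs, from their mammary fat pad. MMTV-PyMT ECs came from spontaneous breast tumours of MMTV-PyMT mice, whose viral promoter drives an oncogene in mammary epithelium, and implanted ECs came from tumours grown in the fat pad of wild type FVB mice from briefly cultured MMTV-PyMT tumour cells. Each tissue was injected with PBS (phosphate-buffered saline) or with cGAMP in PBS, cGAMP being a cyclic dinucleotide that binds and activates STING. Live cells positive for the endothelial protein CD31 and negative for the leukocyte protein CD45 were sorted. According to a legend of the study, each group held 3 mice from 3 independent experiments, but which library came from which experiment was not stated, so p-values measure the spread between these libraries.

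CXCR3 is carried by activated T cells and natural killer cells, and its ligands draw these cells into inflamed tissue and tumours. Type I interferon, which cells make once STING is active, induces Cxcl10 strongly, and interferon-gamma, a product of T and natural killer cells, is the classical inducer of Cxcl9, whose name in older literature is monokine induced by gamma interferon. ECs display such chemokines on the vessel wall, where passing lymphocytes meet them.

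Recovered reads per library lay between 9179771 and 12189431. The 12 endothelial markers were all listed in the table, and their summed level ran from 881 to 2199 FPKM (fragments per kilobase of exon, scaled for library size) over the 18 libraries. Transcripts of other cells were present too. The 10 epithelial markers summed to between 316 and 1251 FPKM and the 10 mural and fibroblast markers to between 366 and 1022 FPKM. Of the 16 myeloid markers, 13 were listed, with sums of 81.0 to 217 FPKM in 17 libraries and 623 FPKM in implanted cGAMP 2, a library that stands apart in this respect. Sums in the other implanted cGAMP libraries were 171 and 192 FPKM. 4 of 12 lymphoid markers and 0 of 6 adipocyte markers were listed, and the others were not analysed here. Under PBS the 4 lymphoid markers summed to 6.13 to 13.4 FPKM (normal), 0.666 to 1.27 (MMTV-PyMT) and 3.28 to 4.89 (implanted). After cGAMP these sums were 5.94 to 21.7, 1.21 to 1.82 and 5.60 to 46.6 FPKM in the same order. In such bulk samples, fewer cells of a type and less RNA per cell cannot be told apart.

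To compare the basal state of the vessels, levels under PBS were examined first. Both ligands were far higher in implanted ECs than in ECs of either other tissue. Cxcl9 stood at 2.98, 7.35 and 4.90 FPKM in the 3 normal libraries, at 2.20, 1.74 and 2.32 FPKM in the MMTV-PyMT libraries, and at 289, 213 and 201 FPKM in the implanted libraries. The lowest implanted library was 27.3-fold above the highest normal library and 86.6-fold above the highest MMTV-PyMT library, so the groups were far from overlapping. Means were 5.07 ± 2.19, 2.09 ± 0.305 and 235 ± 47.9 FPKM (SD, n = 3 each), ratios of 46.2 to normal and 112 to MMTV-PyMT ECs. Among all 13983 genes tested, Cxcl9 had the largest difference on the log2(FPKM + 1) scale in both comparisons, at 5.32 ± 0.307 (SE) against normal ECs (limma, adjusted p = 2.0e-09) and 6.24 ± 0.307 against MMTV-PyMT ECs (limma, adjusted p = 1.9e-09). Genes called higher, with an adjusted p under 0.05 and a log2 difference of at least 1, were 5.74% of those tested where the reference was normal ECs and 4.28% where it was MMTV-PyMT ECs.

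Basal Cxcl10 was low outside implanted tumours. Its levels were 1.24, 1.16 and 0.820 FPKM in normal libraries and 1.17, 0.778 and 0.524 FPKM in MMTV-PyMT libraries, against 24.9, 16.05 and 14.5 FPKM in implanted libraries. These low values rest on 15 to 35 reads a library, and the lowest, 15 reads, has an exact Poisson interval (95%) of 0.293 to 0.865 FPKM, which covers counting error only. Ratios of the means (18.5 ± 5.60 over 1.07 ± 0.224 and 0.825 ± 0.326 FPKM) were 17.2 and 22.4. Differences were 3.20 ± 0.218 from normal ECs and 3.39 ± 0.218 from MMTV-PyMT ECs (limma, adjusted p = 1.0e-08 and 2.0e-08), which placed Cxcl10 25th and 18th among the 13983 genes. The pseudocount of 1 understates such a change of a low gene, and with a pseudocount of 0.1 the same differences were 3.96 and 4.35.

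Normal and MMTV-PyMT ECs stood much closer to each other under PBS. Cxcl9 was lower in each MMTV-PyMT library than in any normal library, with a log2 difference of -0.92 ± 0.307 (limma, adjusted p = 0.018) that stayed short of the 2-fold limit. With a pseudocount of 0.1 this difference passed the limit, at -1.16, and without normal PBS 1 it was -1.19. Without normal PBS 2 or MMTV-PyMT PBS 2 the adjusted p rose to 0.10 and 0.062. Fitted to recovered reads with voom, the Cxcl9 difference was -1.18 and did not pass (voom, adjusted p = 0.053). The Cxcl10 ranges overlapped, and the difference of -0.19 had a confidence interval (95%) from -0.66 to 0.27. Neither ligand was therefore among the 7.67% of genes called lower in MMTV-PyMT than in normal ECs.

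Ptprc, the gene of the leukocyte protein CD45, ranged under PBS from 1.98 to 6.31 FPKM for normal, from 0.262 to 0.333 for MMTV-PyMT and from 0.370 to 1.09 for implanted libraries. The implanted libraries thus lay below every normal library, with a log2 difference of -1.42 (limma, adjusted p = 0.0496), and above every MMTV-PyMT library, with a difference of 0.47 (limma, adjusted p = 0.53). Of the 13 myeloid markers tested under PBS, 1 was called higher and 1 lower in implanted than in normal ECs, and 0 were called either way between implanted and MMTV-PyMT ECs (limma, with 1 at an unadjusted p under 0.05, and 1 called by voom). Genes called lower made up 5.71% of all tested in the first of these comparisons and 3.05% in the second. Their summed levels under PBS were 91.8 to 146 FPKM (normal), 110 to 131 (MMTV-PyMT) and 137 to 217 (implanted), so that the implanted sums also lay above the MMTV-PyMT sums, over a far narrower range than Cxcl9. Under PBS the epithelial sums were 492 to 634 FPKM (normal), 1139 to 1251 (MMTV-PyMT) and 534 to 789 (implanted), and the mural and fibroblast sums were 895 to 1022, 372 to 438 and 445 to 455 FPKM in that order. The endothelial sums were 1360 to 1535 FPKM (normal), 881 to 1082 (MMTV-PyMT) and 1311 to 1698 (implanted). Of the 12 endothelial markers, 3 were called lower and 0 higher in MMTV-PyMT than in normal ECs. Their median difference was -0.64, and 7.67% of all genes were called lower there. In implanted against MMTV-PyMT ECs, 2 were called higher and 0 lower, beside 4.28% of all genes called higher. The part of these cell contents in the ligand levels was not tested.

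**Figure D1:**
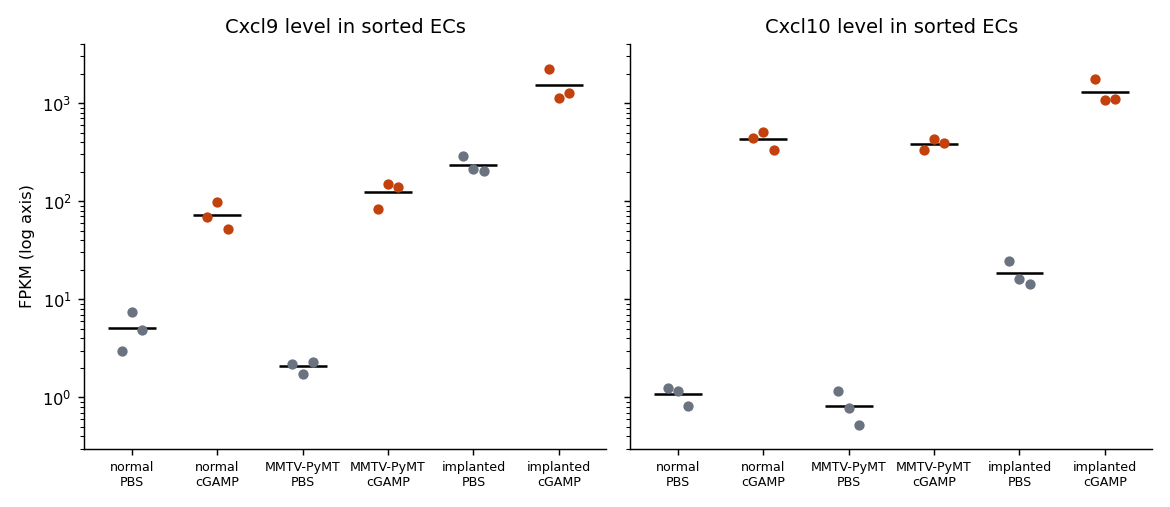
Level of Cxcl9 (left) and Cxcl10 (right) in FPKM on a log axis, for the 3 libraries of each group (points, grey for PBS and orange for cGAMP) with the group mean (line). Within every tissue the cGAMP libraries lie above the PBS libraries for both genes, and implanted PBS libraries hold Cxcl9 at 201 to 289 FPKM, above the cGAMP libraries of normal ECs.

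cGAMP raised both ligands in all 3 tissues within 3 h, and in each tissue the lowest cGAMP library exceeded the highest PBS library. The change of Cxcl10 was the larger in every tissue, and both ligands belonged to the genes called higher with cGAMP, which made up 3.02% for normal, 2.49% for MMTV-PyMT and 6.13% for implanted ECs. In normal ECs, Cxcl10 reached 439, 506 and 333 FPKM after cGAMP, with a mean of 426 ± 87.2, which is 397 times its PBS mean. In MMTV-PyMT ECs it reached 330, 433 and 392 FPKM, a mean of 385 ± 51.5 and a ratio of 467. In implanted ECs it reached 1747, 1071 and 1110 FPKM, a mean of 1309 ± 379 and a ratio of 70.9. On the log2(FPKM + 1) scale Cxcl10 changed by 7.67, 7.73 and 6.07 (SE 0.218 each, limma, adjusted p = 2.7e-12, 1.2e-12 and 1.4e-11). Of all 13983 genes it had the largest increase in normal as well as MMTV-PyMT ECs, and it ranked 6th in implanted ECs. With a pseudocount of 0.1 the changes, in the same order, were 8.50, 8.75 and 6.14.

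Cxcl9 also rose, from more varied starting levels. After cGAMP its levels were 68.8, 98.4 and 51.9 FPKM in normal libraries and 82.9, 149 and 141 FPKM in MMTV-PyMT libraries. The implanted libraries stood at 2225, 1119 and 1273 FPKM, each at least 7.50-fold above every MMTV-PyMT library under cGAMP. The group means of 73.1 ± 23.6, 124 ± 36.1 and 1539 ± 599 FPKM were 14.4, 59.5 and 6.56 times those under PBS. In log2 terms Cxcl9 changed by 3.62 (normal), 5.30 (MMTV-PyMT) and 2.66 (implanted; SE 0.307 each, limma, adjusted p = 4.2e-07, 3.1e-09 and 4.3e-06), which ranked Cxcl9 18th, 11th and 90th among all genes tested.

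Under cGAMP, implanted ECs still had the highest levels of both ligands. For Cxcl9 the difference was 4.36 from normal and 3.60 from MMTV-PyMT ECs, and for Cxcl10 it was 1.60 and 1.73 (limma, adjusted p at most 1.2e-05). Genes called higher made up 9.03% against normal and 7.02% against MMTV-PyMT ECs under cGAMP. The Cxcl10 difference from normal ECs shrank to 0.64 after quantile normalization and was then short of the 2-fold limit. Between MMTV-PyMT and normal ECs under cGAMP, the ranges of both ligands overlapped. The Cxcl9 difference was 0.76 (limma, adjusted p = 0.049) and that of Cxcl10 was -0.13, with a confidence interval from -0.60 to 0.33, so that neither was among the 5.05% called higher in MMTV-PyMT ECs. The Cxcl9 difference was 1.03, past the limit, once MMTV-PyMT cGAMP 1 was left out, but its adjusted p was 0.051 to 0.20 with any of 12 other libraries left out.

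Myeloid markers moved with this contrast between tissues. In implanted against MMTV-PyMT ECs under cGAMP, 12 of 13 myeloid markers were called higher, and against normal ECs 7 of 13 were. Without implanted cGAMP 2, the library with a myeloid sum of 623 FPKM, these counts were 4 and 4. That library held the lowest Cxcl9 and the lowest Cxcl10 of its group, and without it the Cxcl9 differences were larger, at 4.56 from normal and 3.79 from MMTV-PyMT ECs, as were those of Cxcl10, at 1.73 and 1.86. Of the 4 lymphoid markers, 3 were called higher and 0 lower in implanted than in MMTV-PyMT ECs under cGAMP, beside 7.02% of all genes called higher. Against normal ECs 1 was called higher and 1 lower. The part of myeloid or lymphoid transcripts in the Cxcl9 and Cxcl10 levels was not tested. After cGAMP, Ptprc stood at 0.156 to 0.311 FPKM in MMTV-PyMT libraries, near 0. In normal libraries it was at 9.73, 0.903 and 0.985 FPKM, of which normal cGAMP 1 stands apart, and in implanted libraries at 1.80, 9.24 and 1.70 FPKM. With cGAMP, 0 of 13 myeloid markers were called in normal or MMTV-PyMT ECs (limma, with 2 and 1 of them at an unadjusted p under 0.05, and 0 called by voom). Without normal cGAMP 1, 3 were called lower in normal ECs, in a fit where 601 of all 13983 genes were called either way. In implanted ECs 1 of 13 was called higher, with a median change of 0.86 and 5 at an unadjusted p under 0.05. The implanted count was 4 without implanted cGAMP 1, 3 without implanted cGAMP 3 or normal cGAMP 1, and 0 without implanted cGAMP 2 or implanted PBS 2.

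Ordered by mean, Cxcl9 rose from MMTV-PyMT PBS through normal PBS, normal cGAMP, MMTV-PyMT cGAMP and implanted PBS to implanted cGAMP. Untreated implanted ECs thus carried more Cxcl9 than cGAMP-treated ECs of the other tissues. The cGAMP-treated normal ECs were lower by 1.70 on the log2 scale than implanted ECs under PBS (limma, adjusted p = 0.00021), in a comparison where 6.49% of genes were called lower. The cGAMP-treated MMTV-PyMT ECs were lower by 0.94 (limma, adjusted p = 0.026), short of the 2-fold limit, although the ranges did not overlap. It passed the limit, at -1.04 to -1.09, without any of implanted PBS 3, MMTV-PyMT cGAMP 2 or MMTV-PyMT cGAMP 3. Without implanted PBS 1 or MMTV-PyMT cGAMP 1 the adjusted p was 0.099 to 0.14. Cxcl10 had another order, from MMTV-PyMT PBS and normal PBS, which did not differ beyond their spread, through implanted PBS to MMTV-PyMT cGAMP and normal cGAMP, which likewise did not, and on to implanted cGAMP. Implanted PBS ECs lay below the cGAMP-treated MMTV-PyMT and normal ECs in Cxcl10, by 4.34 and 4.47 (limma, adjusted p = 1.8e-09 and 5.4e-10). Genes called higher in these comparisons were 2.87% and 6.67%.

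Set against every other gene of the same library, Cxcl9 ranked between 9449 and 10348 of 16248 by FPKM in MMTV-PyMT libraries under PBS, between 67 and 97 in implanted libraries under PBS and between 12 and 21 in implanted libraries under cGAMP. Cxcl10 ranked between 11411 and 13281 in MMTV-PyMT libraries under PBS and between 43 and 57 after cGAMP. In implanted libraries it moved from between 1489 and 2705 to between 17 and 23. After cGAMP both transcripts were thus among the most abundant of the implanted libraries.

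Next, the size of the cGAMP change was compared between tissues. By point estimate, implanted ECs had the smallest log2 change of both ligands and the largest gain in level. The gain in mean Cxcl10 was 425 ± 50.4 FPKM (SE) for normal, 384 ± 29.7 for MMTV-PyMT and 1291 ± 219 for implanted ECs. For Cxcl9 the gains were 68.0 ± 13.7, 122 ± 20.9 and 1304 ± 347 FPKM. On the log2 scale the change of Cxcl10 was smaller in implanted than in normal ECs by 1.60 ± 0.308 (limma interaction, difference -1.60, adjusted p = 0.0020) and smaller than in MMTV-PyMT ECs by 1.66 ± 0.308 (difference -1.66, limma interaction, adjusted p = 0.0025). With a pseudocount of 0.1 these differences were -2.36 and -2.61. Genes called lower in the same tests made up 0.937% and 0.629%.

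Cxcl9 had the same order of tissues by point estimate, from MMTV-PyMT through normal to implanted ECs, but with different gaps. Its change in implanted ECs was smaller than in MMTV-PyMT ECs by 2.64 ± 0.434 (difference -2.64, limma interaction, adjusted p = 0.0011), the second most negative value of all genes tested. Against normal ECs the difference was -0.96 with a confidence interval from -1.89 to -0.043, and it did not pass after adjustment (limma interaction, adjusted p = 0.14). Without implanted cGAMP 1 it was -1.26 and passed (limma interaction, adjusted p = 0.047), as it did after quantile normalization (-1.72) or a scaling by total reads (-1.30). The change in MMTV-PyMT ECs exceeded that in normal ECs by 1.68 ± 0.434 (limma interaction, adjusted p = 0.027), in a test where 1.28% of genes were called higher. This last call was lost when any of 6 libraries was left out (normal PBS 2, normal PBS 3, normal cGAMP 3, MMTV-PyMT PBS 2, MMTV-PyMT cGAMP 2 or MMTV-PyMT cGAMP 3), with differences of 1.41 to 1.67 and adjusted p of 0.061 to 0.073. Cxcl10 showed no such difference between MMTV-PyMT and normal ECs (0.060, confidence interval from -0.59 to 0.71). Comparisons of a tissue's change with its PBS level share the PBS libraries and are not independent.

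**Figure D2:**
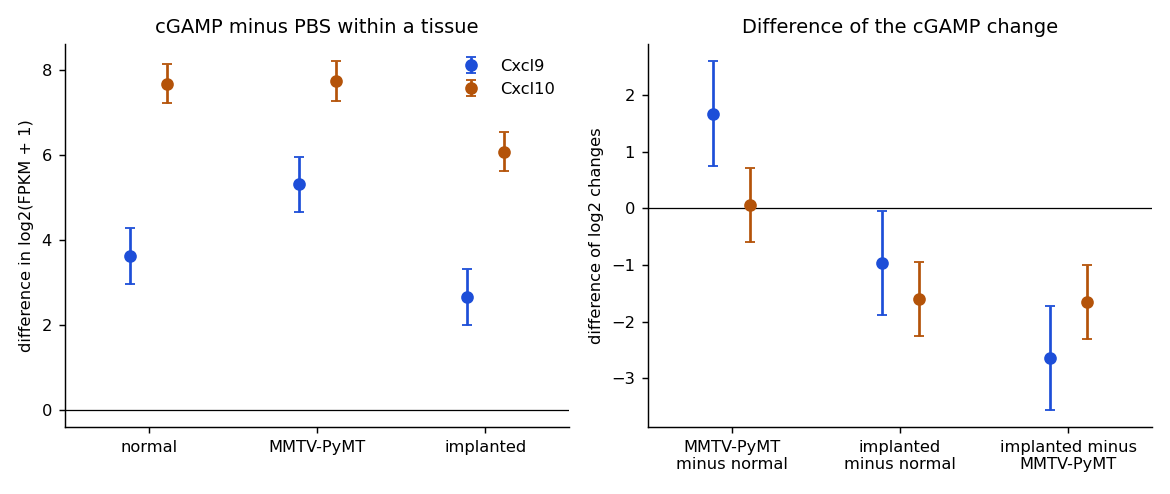
Differences in log2(FPKM + 1) for Cxcl9 (blue) and Cxcl10 (brown), with bars for the 95% confidence interval of the limma fit. The left panel shows cGAMP minus PBS in each tissue, where Cxcl10 changed by 6.07 to 7.73 and Cxcl9 by 2.66 to 5.30, and the right panel shows differences of that change between tissues, of which the Cxcl9 value for implanted minus MMTV-PyMT ECs, -2.64, is the most negative.

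With cGAMP, the balance of the pair turned towards Cxcl10. Under PBS, Cxcl9 made up 70.6% to 86.4% of the summed FPKM of both ligands in normal libraries, 65.2% to 81.6% in MMTV-PyMT libraries and 92.1% to 93.3% in implanted libraries. After cGAMP its share was 13.5% to 16.3%, 20.1% to 26.4% and 51.1% to 56.0% in the same order. Cxcl9 thus exceeded Cxcl10 in all PBS libraries and in the cGAMP libraries of implanted ECs, and Cxcl10 exceeded Cxcl9 in the cGAMP libraries of the other tissues. The log2 ratio of Cxcl9 to Cxcl10 differed between cGAMP and PBS by -3.77 on average over tissues (2-sided exact permutation test within tissues, p = 0.00025, the smallest it can give, adjusted p = 0.0010 over 4 tests). The ratio was higher in implanted than in normal ECs by 2.15 and higher than in MMTV-PyMT ECs by 2.08 (2-sided exact permutation tests within treatments, p = 0.0050 each, the smallest they can give, adjusted p = 0.0067). Between MMTV-PyMT and normal ECs it differed by 0.071 over both treatments (exact permutation test, p = 0.84), a mean of opposite differences. Under PBS it was lower in MMTV-PyMT ECs by 0.76 on the log2 scale, with overlapping ranges (2-sided exact permutation test, p = 0.20). After cGAMP it was higher there by 0.90, and the ratios of 0.251 to 0.359 lay above the 0.156 to 0.194 of normal libraries (2-sided exact permutation test, p = 0.10, the smallest that 3 against 3 libraries allow). The combined level of both ligands went from a mean of 6.15 to 499 FPKM for normal, from 2.91 to 509 for MMTV-PyMT and from 253 to 2848 for implanted ECs.

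**Figure D3:**
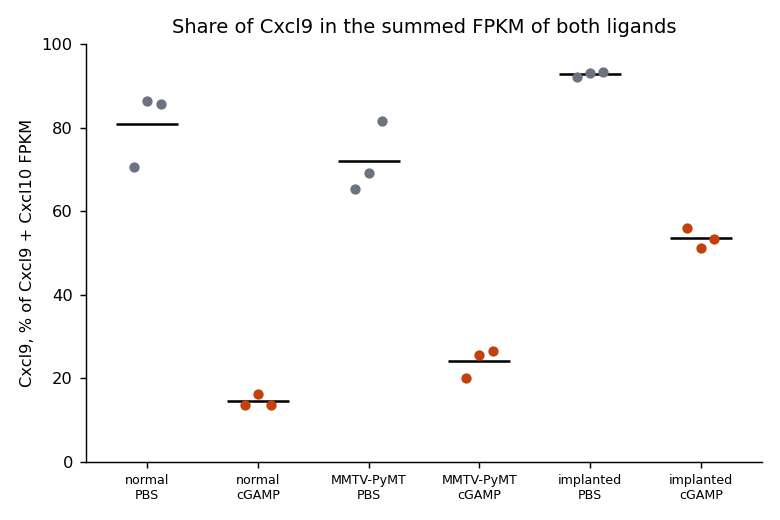
Cxcl9 as a percentage of the summed FPKM of Cxcl9 and Cxcl10 in each library (points, grey for PBS and orange for cGAMP) with the group mean (line). The share falls with cGAMP in each tissue and stays above 50% in implanted libraries, where it is 51.1% to 56.0%.

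Both genes lie in a cluster on mouse chromosome 5, transcribed from the minus strand (build GRCm38, mm10, GENCODE M21 annotation). Cxcl9 (ENSMUSG00000029417.9) spans chr5:92321347-92328079 with 3016 exonic bases, and Cxcl10 (ENSMUSG00000034855.13) spans chr5:92346638-92348889 with 2252 exonic bases. Their start sites are 20.8 kb apart. Cxcl10 lies inside the span of Art3, an ADP-ribosyltransferase gene on the plus strand, and shares 133 of its exonic bases with an exon of it. Use of the strand in counting was not stated, so Art3 and Cxcl10 are uncertain in that stretch. Art3 itself was at 3.46 to 12.9 FPKM as a group mean, far below the 330 FPKM or more of Cxcl10 after cGAMP. Under PBS, however, Art3 means of 7.10 (normal) and 3.46 FPKM (MMTV-PyMT) lay above those of Cxcl10, at 1.07 and 0.825 FPKM. In implanted ECs under PBS, Art3 at 4.50 FPKM lay below Cxcl10 at 18.5 FPKM. The part of Art3 reads in these Cxcl10 levels was not tested.

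The 250 bases before each start site are shown because the genes rose together (RefSeq promoters, build GRCm38.p6, 5′ to 3′ on the minus strand, Cxcl9 at chr5:92328080-92328329 and Cxcl10 at chr5:92348890-92349139). Capitals mark matches, on either strand, to GAAANNGAA, letters from the interferon-stimulated response element bound by interferon regulatory factors, and to GGGANNNCC, letters from the kB site bound by NF-kB. The letters were chosen with these sequences in view.
Cxcl9: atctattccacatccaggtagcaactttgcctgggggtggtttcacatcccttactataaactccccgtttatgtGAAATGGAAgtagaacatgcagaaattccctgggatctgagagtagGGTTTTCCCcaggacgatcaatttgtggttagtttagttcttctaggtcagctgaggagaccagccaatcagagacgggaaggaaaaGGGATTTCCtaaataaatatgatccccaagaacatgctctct
Cxcl10: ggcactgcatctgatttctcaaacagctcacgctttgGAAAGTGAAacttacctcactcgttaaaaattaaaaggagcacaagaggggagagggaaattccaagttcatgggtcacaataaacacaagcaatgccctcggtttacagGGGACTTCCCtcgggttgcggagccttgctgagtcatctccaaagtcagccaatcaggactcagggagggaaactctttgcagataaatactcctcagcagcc
GAAANNGAA occurs at 1 place in each window, starting 213 bases before the start of Cxcl10 and 175 before that of Cxcl9, and 8.18% of 27025 genes hold it in a window of this length. GGGANNNCC has 2 matches before each gene, and 17.8% of genes hold it. Other forms of the kB site are not marked. Before Cxcl10 the GGGANNNCC matches overlap in a single stretch, on opposite strands, from 103 to 94 bases before the start. Before Cxcl9 they lie apart, the nearer of them at 42 to 34 bases. Both windows hold the run CAGCCAATCAG, a CCAAT box with its surroundings, starting 68 bases before the start of Cxcl9 and 57 before that of Cxcl10, and 0.881% of genes hold that run on either strand. Such matches describe the letters of these windows and are not measured binding sites.

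Within 250 kb of the pair, 22 genes are annotated and 10 were tested. In the limma fit the chemokines Cxcl9, Cxcl10 and Cxcl11 alone among these 10 were called higher with cGAMP in normal ECs, and likewise in MMTV-PyMT ECs. In implanted ECs, Art3 and G3bp2, a stress granule protein gene, were called as well, with log2 changes of 1.31 and 1.53. Sdad1 is the nearest tested gene on the side of Cxcl9 away from Cxcl10. It changed by 0.76 in normal ECs, which passed in adjusted p (limma, adjusted p = 1.1e-05) but not in size. Under PBS the same 3 chemokines alone among the 10 were called higher in implanted ECs, against either other tissue.

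**Figure D4:**
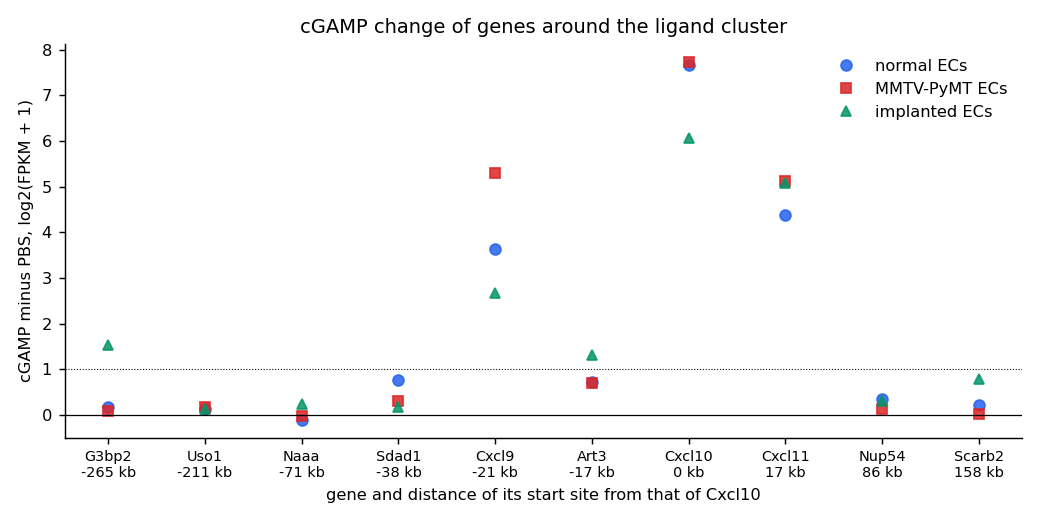
Change with cGAMP in log2(FPKM + 1) for the 10 tested genes within 250 kb, ordered along the chromosome, with the distance of each start site from that of Cxcl10 (circles for normal, squares for MMTV-PyMT and triangles for implanted ECs; the dotted line marks a change of 1). The 3 chemokines stand above the line in all tissues, and G3bp2 and Art3 stand above it in implanted ECs.

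Cxcl11, the gene of the remaining interferon-inducible CXCR3 ligand, is annotated in the reference genome as a polymorphic pseudogene. Its levels were 0.134, 0.0444 and 0.0973 FPKM in normal, 0.0199, 0.0486 and 0.0830 FPKM in MMTV-PyMT and 15.2, 10.2 and 9.55 FPKM in implanted libraries under PBS. The normal and MMTV-PyMT values rest on 1 to 6 reads each. After cGAMP it reached 14.6 to 32.3, 25.9 to 43.2 and 331 to 606 FPKM. Like the other ligands it was called higher with cGAMP in each tissue (log2 changes of 4.38, 5.13 and 5.09) and in implanted ECs under PBS (3.51 and 3.56). None of its differences between tissues in the cGAMP change passed the test, but this rests on the pseudocount. With a pseudocount of 0.1 its changes were 6.85, 7.91 and 5.19, and the change in implanted ECs was then smaller than in normal ECs (-1.66, limma interaction, adjusted p = 0.014) and than in MMTV-PyMT ECs (-2.72, limma interaction, adjusted p = 0.00098). Of the 7 genes listed for the CXCR3 axis, 5 were in the table, and the receptor gene Cxcr3 and the platelet ligand gene Pf4 were not analysed here. Ackr3, an atypical receptor that takes up chemokines, was at 16.1 to 41.2 FPKM as a group mean. It was called in none of the comparisons of cGAMP with PBS within a tissue. Dpp4, a peptidase that trims CXCR3 ligands, was at 4.11 FPKM under PBS in MMTV-PyMT ECs and at 0.302 in implanted ECs, a difference of -1.97 that was called. Under cGAMP, 0 of the 5 genes were called lower in implanted than in MMTV-PyMT ECs, or 1 without implanted cGAMP 2. Between MMTV-PyMT and normal ECs, Ackr3 and Dpp4 were both called under either treatment, 1 of them higher and 1 lower.

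To find which genes behaved most alike, log2(FPKM + 1) was centred per gene and the root mean square difference taken over the 18 libraries. The 5 genes nearest to Cxcl9 were Serpina3f (0.67), Serpina3g (0.87), Cxcl11 (0.96), Gm12250 (1.06) and Igtp (1.14). Serpina3f and Serpina3g are serine protease inhibitor genes of a family with near-identical members, so their levels are uncertain where reads fit several members. Igtp encodes an interferon-inducible GTPase. Serpina3f shared the high basal level in implanted ECs, at 69.9 FPKM against 2.37 (normal) and 1.34 (MMTV-PyMT). The 5 nearest to Cxcl10 were Ifit2 (0.69), Oasl1 (0.72), Rsad2 (0.78), Ifit3 (0.94) and Ifit1 (1.03), all of them antiviral genes induced by type I interferon. Rsad2 for example went from 7.21 to 814 FPKM in normal and from 13.1 to 1759 FPKM in implanted ECs. The ligands were less alike than these, with a root mean square difference of 2.04 that placed Cxcl10 99th from Cxcl9 and Cxcl9 26th from Cxcl10.

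Genes of the pathways that act on the ligands were taken from fixed lists, chosen with earlier results of these data known. Of 14 interferon signalling genes, 7 were called higher with cGAMP in normal ECs, 7 in those of MMTV-PyMT tumours and 6 in those of implanted tumours, with medians of 0.72, 0.81 and 0.77 beside -0.045, -0.037 and -0.014 over all genes. Irf1, a transcription factor induced by interferon, changed by 1.98, 2.53 and 1.53 with cGAMP, and Irf7, which amplifies type I interferon, by 2.39, 2.25 and 2.09. Under PBS, 4 of the 14 genes were called higher in implanted than in normal ECs and 5 than in MMTV-PyMT ECs.

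Among 18 type I interferon targets, 16, 16 and 18 were called higher with cGAMP, taking the tissues in the same order, with median changes of 4.21, 4.96 and 4.35. Among 18 interferon-gamma targets the counts were 10, 10 and 11 and the medians 1.43, 2.87 and 2.22. Cd274, the gene of the checkpoint ligand PD-L1, changed by 3.75, 5.09 and 4.44. Cd74 and H2-Ab1, genes of antigen presentation by MHC class II, were called with cGAMP in none of the tissues, with changes of -0.32 to 0.85. The log2 change of Cxcl10 exceeded that of every type I target named here in normal and MMTV-PyMT ECs (Ifit1 at 6.58 and 7.16, Oasl1 at 7.01 and 6.97, Rsad2 at 6.64 and 7.49).

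Under PBS, both groups of targets were higher in implanted ECs. Of the interferon-gamma targets, 14 of 18 were called higher against normal and 17 of 18 against MMTV-PyMT ECs, with medians of 1.97 and 2.81. Of the type I targets, 13 and 17 of 18 were called, with medians of 1.45 and 2.02, beside 0.010 and -0.0097 over all genes. Cd74 stood at 57.4 (normal), 29.2 (MMTV-PyMT) and 528 FPKM (implanted) under PBS, and Serpina3g at 1.77, 0.565 and 41.6 FPKM. Cxcl9, at 5.32 above normal ECs, lay beyond all genes of both lists, among which Serpina3g had the largest difference from normal ECs, at 3.93. Against MMTV-PyMT ECs the corresponding values were 6.24 for Cxcl9 and 4.76 for Serpina3g. Members of both lists also differed between tissues in the cGAMP change. In implanted against MMTV-PyMT ECs, 6 of 18 interferon-gamma targets were called lower (Iigp1 at -2.64 and Igtp at -2.43 for example) and 2 higher, and of the type I targets 2 were called lower and 1 higher. Genes called higher there made up 1.85% of all tested. The count of type I targets called lower was 6 with a pseudocount of 0.1 and with scaling by total reads and 5 without MMTV-PyMT PBS 2, so the lists did not keep apart in this count. In MMTV-PyMT against normal ECs, 8 interferon-gamma and 2 type I targets were called higher, and the latter count was 7 without MMTV-PyMT PBS 2. In implanted against normal ECs, 2 interferon-gamma targets were called higher and 2 lower, and 3 type I targets higher and 1 lower, where 3.75% of all genes were called higher. Without normal cGAMP 1, 6 interferon-gamma targets were called higher. No difference between the lists was tested.

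**Figure D5:**
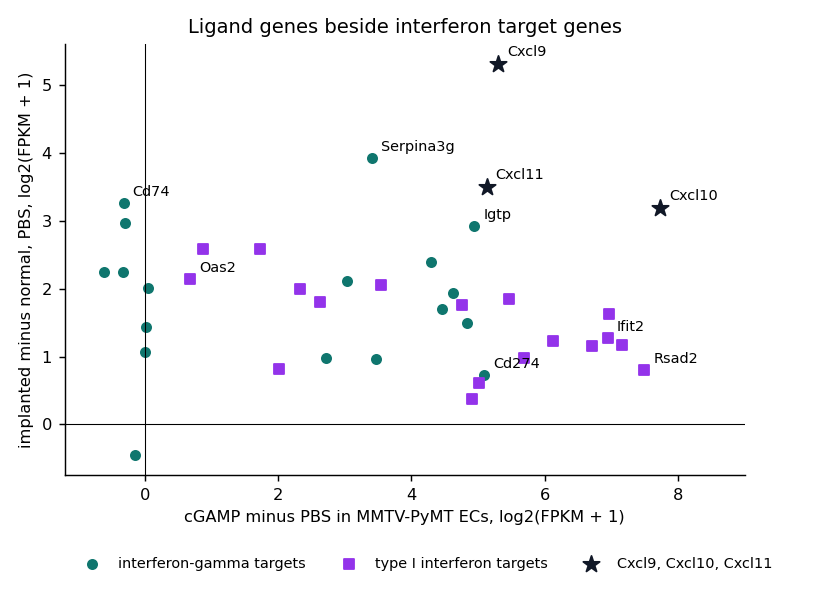
Each point is a gene, with its change with cGAMP in MMTV-PyMT ECs on the horizontal axis and its difference between implanted and normal ECs under PBS on the vertical axis, both in log2(FPKM + 1), axes that share no library (circles for 18 interferon-gamma targets, squares for 18 type I interferon targets and stars for 3 CXCR3 ligands). Cxcl9 has the highest point on the vertical axis, at 5.32, and Cxcl10 the point furthest right, at 7.73.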

How the data were processed

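According to the methods of the study, directional libraries were sequenced on a NextSeq instrument, checked with FastQC, aligned to mm10 with STAR 2.7 and counted with HTSeq. The authors deposited FPKM values for 16248 genes in 18 columns, 0 of which lacked a matching sample. Columns that carry only the treatment were taken as normal ECs because no other tissue was left. Values per kilobase of exon were whole multiples of a step, within 0.05 of a read, for 16246 genes (99.99%), and the denominators were a constant times size factors of the median-of-ratios kind. The 13983 genes with 3 or more libraries at an FPKM of 1 or more were fitted as log2(FPKM + 1) over all 18 libraries, with 1 mean per group, in limma 3.58.1 (eBayes with trend, 2-sided, R 4.3.3), and p-values were adjusted over all of them by the Benjamini-Hochberg method. The 14 contrasts and a seeded simulation were run with the same code. A call needs an adjusted p under 0.05 and a log2 difference of at least 1. Changes are on the log2(FPKM + 1) scale. Exact permutation tests of the log2 ratio used SciPy 1.17.1 and Python 3.11.15. Alternatives were a pseudocount of 0.1, other filters and scalings, voom on recovered reads, a fit of the compared groups only, a replicate block and each library left out. Named genes are the pair, list members, the 5 nearest genes in pattern and genes within 250 kb. A motif searched without a match before either gene is not reported here. Members and lists were chosen with earlier results of these data known. Replicates differed by more than sampling noise in all 18 pairs.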

Additional observations from a re-analysis of the deposited data

Results flagged for a closer look

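The change with cGAMP differed between tissues by a test of the difference itself in 4 cases. For Cxcl9, the change in implanted ECs minus that in MMTV-PyMT ECs was -2.64, and the change in MMTV-PyMT ECs minus that in normal ECs was 1.68. For Cxcl10, the change in implanted ECs minus that in normal ECs was -1.60, and minus that in MMTV-PyMT ECs -1.66. No flag was set for single deviating libraries in groups of 3. Libraries that stand apart in markers of other cells are named above.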

How the results depend on the processing

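Of the 836 values obtained for the pair and their ratio under alternatives, 811 kept their direction and their side of the threshold. Many of the differences could not move, so this count overstates how far the results were tried. Other filters, a fit without trend or of the compared groups only and a replicate block left each log2 difference of the pair as it was. Leaving out a library of a group outside a comparison did so too. The Cxcl10 difference in change between MMTV-PyMT and normal ECs (0.060) turned to -0.071 with scaling by total reads and to -0.38 with quantile normalization. With scaling by total reads the median of all genes lay as low as -0.33 (implanted against normal ECs under cGAMP, from 0.038). It made the Cxcl9 difference in change between implanted and normal ECs -1.30 (-1.11 relative to the median of all genes), which then passed, as did -1.72 with quantile normalization. Quantile normalization also took Cxcl10 in implanted against normal ECs under cGAMP to 0.64, short of the limit. A pseudocount of 0.1 took Cxcl9 in MMTV-PyMT against normal ECs under PBS to -1.16, past the limit. With voom this difference was -1.18 but did not pass (voom, adjusted p = 0.053). The cause was not tested. The ratio difference between MMTV-PyMT and normal ECs (0.071) was -0.14 with medians in place of means and -0.16 to 0.20 with 1 library left out.

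With 1 library left out, ranges were -1.19 to -0.65 for Cxcl9 in MMTV-PyMT against normal ECs under PBS and 0.54 to 1.03 under cGAMP, 1.41 to 1.95 for its difference in change between these tissues, -1.26 to -0.69 between implanted and normal ECs (past the threshold without implanted cGAMP 1), and -1.09 to -0.67 for cGAMP-treated MMTV-PyMT against untreated implanted ECs. For Cxcl10 they were -0.30 to 0.00041 in MMTV-PyMT against normal ECs under cGAMP and -0.11 to 0.19 for the difference in change.

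Same-numbered libraries correlated over 0.1 in 8 of 45 pairs (-0.35 to 0.29). Differently numbered libraries were not set beside them, so whether the numbers pair libraries cannot be told from this. A replicate block left each difference as it was (Cxcl10 in normal ECs 7.67, Cxcl9 in implanted ECs 2.66) and changed no call of the pair. The number of genes called moved by over 1.5 times in 13 of 14 comparisons with a pseudocount of 0.1 (1.45 to 2.01 times) and in 12 with voom (1.45 to 2.15), and in 8 with a mean FPKM of at least 5 (0.556 to 0.807). In normal ECs with cGAMP, 518 genes were called, or 1039 and 1115 with the first and second of these. Depth limits the PBS levels of Cxcl10 outside implanted tumours, at 15 to 35 reads.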

Other observations

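Other chemokines of the CXC family had smaller changes than the CXCR3 ligands. Of 10 listed, 6 were in the table, and 0 were called with cGAMP in normal ECs (limma, with 2 at an unadjusted p under 0.05, and 0 called by voom). In the ECs of each tumour type 2 were called higher. The implanted count was 4 without implanted cGAMP 3, and 1 without implanted cGAMP 1 or with scaling by total reads. The MMTV-PyMT count was 1 without MMTV-PyMT PBS 2 or MMTV-PyMT cGAMP 2. Cxcl1 and Cxcl2, which attract neutrophils, changed by 1.34 and 1.07 in MMTV-PyMT ECs, and Cxcl16 by 1.51 in implanted ECs. Cxcl12, a homeostatic chemokine, stood under PBS at 154 (normal), 38.9 (MMTV-PyMT) and 55.6 FPKM (implanted), with cGAMP changes of -0.37, 0.12 and -0.45 that were not called.

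Of 16 NF-kB targets, 6 (normal), 10 (MMTV-PyMT) and 11 (implanted) were called higher with cGAMP, with medians of 0.98, 1.20 and 1.16. The implanted count was 7 with scaling by total reads. Under PBS, 2 were called in implanted against normal ECs, both lower, beside 5.71% of all genes called lower, and against MMTV-PyMT ECs 2 were called higher and 1 lower, beside 4.28% and 3.05%. Ccl2, a monocyte chemokine, changed by 4.28, 4.95 and 5.82 with cGAMP. Vcam1, an adhesion molecule for leukocytes, changed by 3.44 and 3.42 in MMTV-PyMT and implanted ECs.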
